A study of Mus musculus with 4 samples.

Results

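The Hippo pathway is a kinase cascade that restrains a pair of related co-activators, YAP (encoded by Yap1) and TAZ (encoded by Wwtr1). When the cascade is active, the LATS kinases phosphorylate both proteins and keep them out of the nucleus, and when it is inactive they bind TEAD factors on DNA and switch on target genes. In the liver the pathway is known for controlling organ size and biliary cell identity, and its targets are known to respond to cell shape and matrix stiffness.

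The 8 genes described here were chosen as a list, with earlier results of these data known. All of them were among the 54464 genes of the deposited matrix. They are the co-activators Yap1 and Wwtr1, the DNA-binding factor Tead1, the kinase Lats2, the angiomotin family scaffold Amotl2, the secreted matricellular proteins Ccn1 and Ccn2, and the nuclear ankyrin repeat protein Ankrd1. Lats2 and Amotl2 restrain YAP and are also known as targets of YAP and TEAD.

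Single-nucleus RNA-Seq (snRNA-Seq) had been run on frozen liver of 3 HNKO mice (hepatocyte-specific knockout of Nampt, an enzyme of NAD synthesis) and 3 WT littermates, all female on a C57BL6/BomTac background. Both groups carried floxed Nampt alleles, and HNKO mice also carried Cre under control of the albumin promoter, so that deletion was directed at hepatocytes. All mice had been fed a purified control diet for 6 weeks, starting at 8 to 12 weeks of age, and came from a cohort in which bile ducts were catheterised under anaesthesia on the day of killing. Part of that cohort had nicotinamide riboside in the drinking water, and whether the mice sequenced did is not given in the sources used here. Each mouse was marked with its own hashtag before nuclei were pooled, and the hashtag assigned to each nucleus was used here to sum unique molecular identifiers (UMIs) per mouse and cell type. The study asked which liver cells account for the expression changes seen in whole HNKO liver.

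The matrix held 5193 nuclei, 629 to 1063 per mouse, with 3766532 to 7763269 UMIs per mouse. Hepatocytes made up 84.9% of nuclei. Cholangiocytes reached 10 nuclei in the HNKO mice only (40, 10 and 58), as did Kupffer cells (29, 10 and 25), so that no genotype comparison could be made in either type. Of 8, 8, 8, 8, 7 and 8 markers of hepatocytes, cholangiocytes, endothelial cells, stellate cells, Kupffer cells and CD45+ cells, 8, 8, 7, 8, 7 and 8 were highest in their own type. Alb, which encodes albumin, was 604 to 2236 CPM in the other types against 5244 CPM in hepatocytes, and the part of such hepatocyte RNA in the contrasts below was not tested. Hepatocytes of HNKO mouse 3 stood apart, with a summed level of the 8 hepatocyte markers of 10335 CPM against 23304 to 30725 CPM in the other 5 mice. Nampt, the targeted gene, was 92.2, 109 and 104 TMM-scaled CPM in hepatocytes of the mice labelled WT and 92.3, 148 and 71.5 in those labelled HNKO. The groups overlapped (edgeR log2 fold change 0.03, SE 0.27, FDR 0.98), and these counts do not show which exons were present.

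Levels below are UMIs per 1000000 UMIs of a sum (CPM), where a sum is all nuclei of 1 type in 1 mouse. Levels are compared between cell types and mice for the same gene, and never between genes. Fewer transcripts per cell and a different mix of cells inside a named type cannot be told apart in such sums.

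The start sites of 6 of the 8 genes were found among RefSeq promoter windows on GRCm38.p6, and 7 of their 8 windows held GGAATG or its reverse complement CATTCC, the core letters of the TEAD element. The windows of Wwtr1 overlap and hold the same match, so the windows are not independent, and the Lats2 match lies just after the start. Across all 32851 windows of the same length, 14.7% held these letters on either strand. The 250 bases before the start are shown for the target genes Ccn1, Ankrd1 and Amotl2, since the results below turn on them, with the matching letters in capitals. The Ccn1 match began 103 bases before the start, the Ankrd1 matches 210 and 123 bases before it, and the Amotl2 match 65 bases before it.
Ccn1 (chr3:145649986-145650235, minus strand): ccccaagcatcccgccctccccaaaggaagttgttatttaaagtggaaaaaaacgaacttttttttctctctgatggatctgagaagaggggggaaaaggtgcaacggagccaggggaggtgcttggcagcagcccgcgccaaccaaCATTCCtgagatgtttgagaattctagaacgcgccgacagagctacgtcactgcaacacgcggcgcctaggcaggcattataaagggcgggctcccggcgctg
Ankrd1 (chr19:36119845-36120094, minus strand): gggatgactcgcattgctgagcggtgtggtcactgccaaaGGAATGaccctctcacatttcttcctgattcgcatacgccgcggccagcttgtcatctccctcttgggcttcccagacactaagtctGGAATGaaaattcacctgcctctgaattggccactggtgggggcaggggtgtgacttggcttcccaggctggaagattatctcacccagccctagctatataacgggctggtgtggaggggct
Amotl2 (chr9:102717554-102717803, plus strand): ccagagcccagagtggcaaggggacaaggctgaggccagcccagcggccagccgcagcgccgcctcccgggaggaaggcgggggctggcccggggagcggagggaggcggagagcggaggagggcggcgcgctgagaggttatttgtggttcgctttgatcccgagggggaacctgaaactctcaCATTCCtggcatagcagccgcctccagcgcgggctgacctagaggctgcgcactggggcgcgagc

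All 8 genes are protein coding. Yap1 lies on chromosome 9 at 7931999 to 8004596 (minus strand), Wwtr1 on chromosome 3 at 57455649 to 57575910 (minus strand) and Tead1 on chromosome 7 at 112679318 to 112906807 (plus strand), all on GRCm38. Lats2 (chromosome 14, 57689662 to 57758388, minus strand) shares its strand and span with the annotated gene Gm49361. UMIs of Lats2 were split between genes by the authors' counting, so that 65.0% of its nonzero values were not whole numbers, and its levels are uncertain for that reason. Amotl2 is on chromosome 9 (102716672 to 102733418, plus strand), Ccn1 on chromosome 3 (145646976 to 145649981, minus strand), Ccn2 on chromosome 10 (24595442 to 24598683, plus strand) and Ankrd1 on chromosome 19 (36111961 to 36120099, minus strand). Ccn1, Ankrd1 and Amotl2 overlapped no other annotated gene.

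Cell type was compared first, to see which liver cells express the co-activators and which express their targets. Cholangiocytes and stellate cells held the highest levels of the secreted targets Ccn1 and Ccn2, Ankrd1 was found almost entirely in cholangiocytes, and endothelial cells held the highest Wwtr1. Yap1 in cholangiocytes and stellate cells was not separated from hepatocytes by the test, and all 3 of Yap1, Wwtr1 and Tead1 were lower in Kupffer and CD45+ cells than in hepatocytes.

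**Figure D1:**
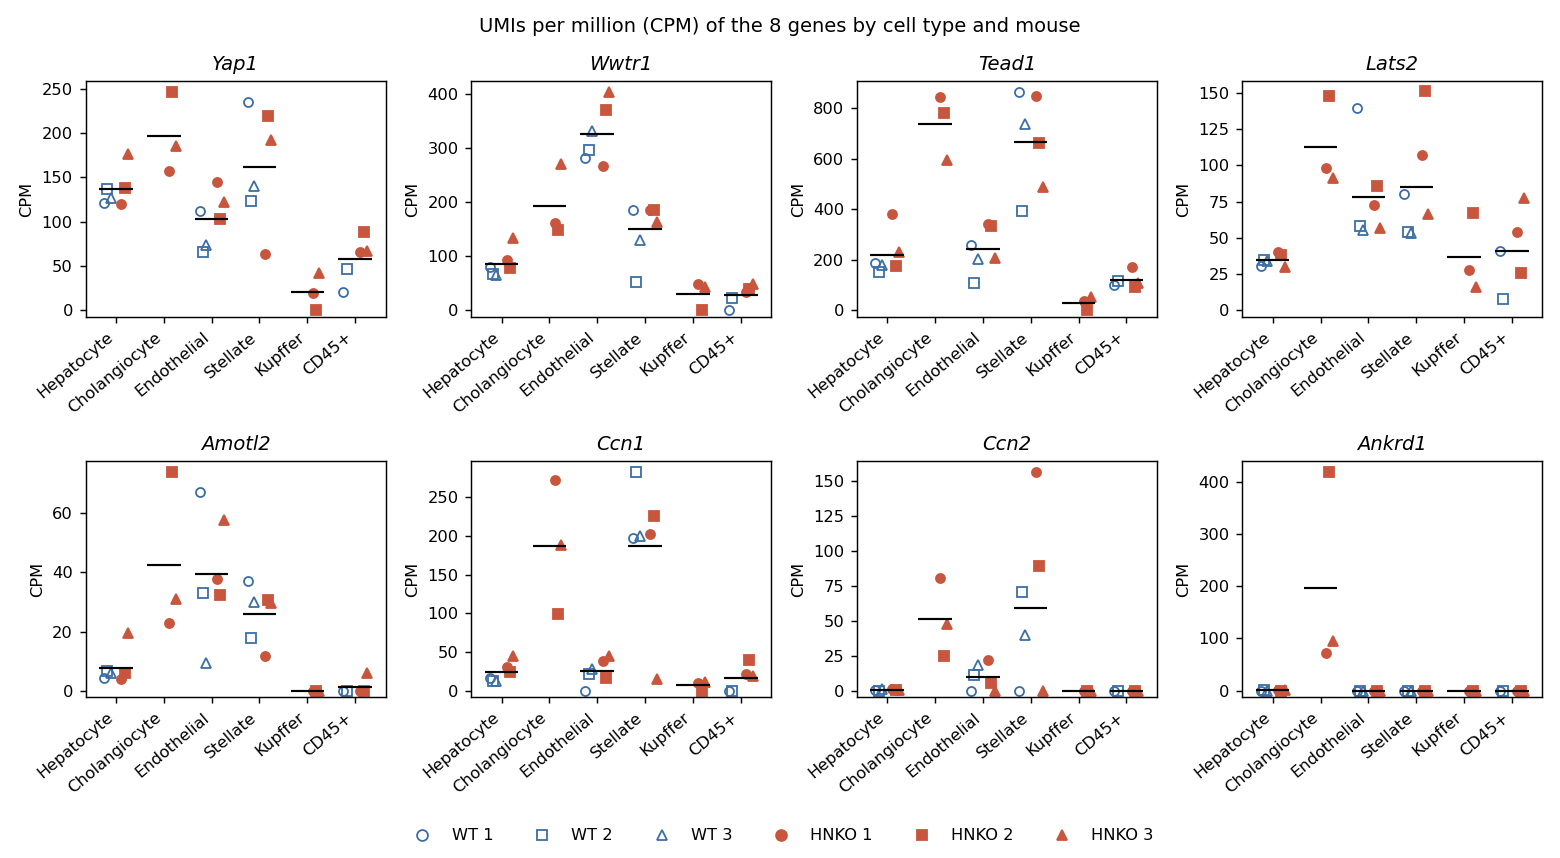
CPM of each gene (vertical axis, a separate linear scale per gene) in 6 cell types, with 1 point per mouse (open, WT; filled, HNKO) for sums of at least 10 nuclei and a bar at the mean. Ankrd1 rises above 1 CPM only in cholangiocytes, and the lowest stellate point for Ccn1 is HNKO mouse 3.

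Of the 8 genes, 7 had enough UMIs for the cell type test and Amotl2 did not. Ccn2 and Ankrd1 had 19 and 8 UMIs in all hepatocyte sums. They passed the filter on low counts only through cholangiocytes or stellate cells, where they were high, so their place in the counts below was partly set in advance. Against hepatocytes of the same mice, 6 of 7 were higher in cholangiocytes, where 40.4% of all 5335 genes tested differed in either direction and 20.3% were higher. Without a filter on low counts, where the median log2 fold change of all genes tested was -0.63 instead of 0.071, 3 members were called, and without HNKO mouse 3, which leaves 2 cholangiocyte sums, 2 were. In stellate cells 5 of 7 were higher (59.2% of all genes differed and 31.3% were higher), and 3 without that filter. In endothelial cells 3 were higher and 1 was lower (59.5% of all genes differed, with 27.8% higher and 31.7% lower), and 2 were called without HNKO mouse 3 or in HNKO mice alone, the latter chosen after seeing the data. In Kupffer cells 3 were lower (51.6% differed and 27.6% were lower), as were 3 in CD45+ cells (52.1% and 29.6%). Counts of 3 or 4 of 7 were thus near the share of all genes that differed.

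**Figure D2:**
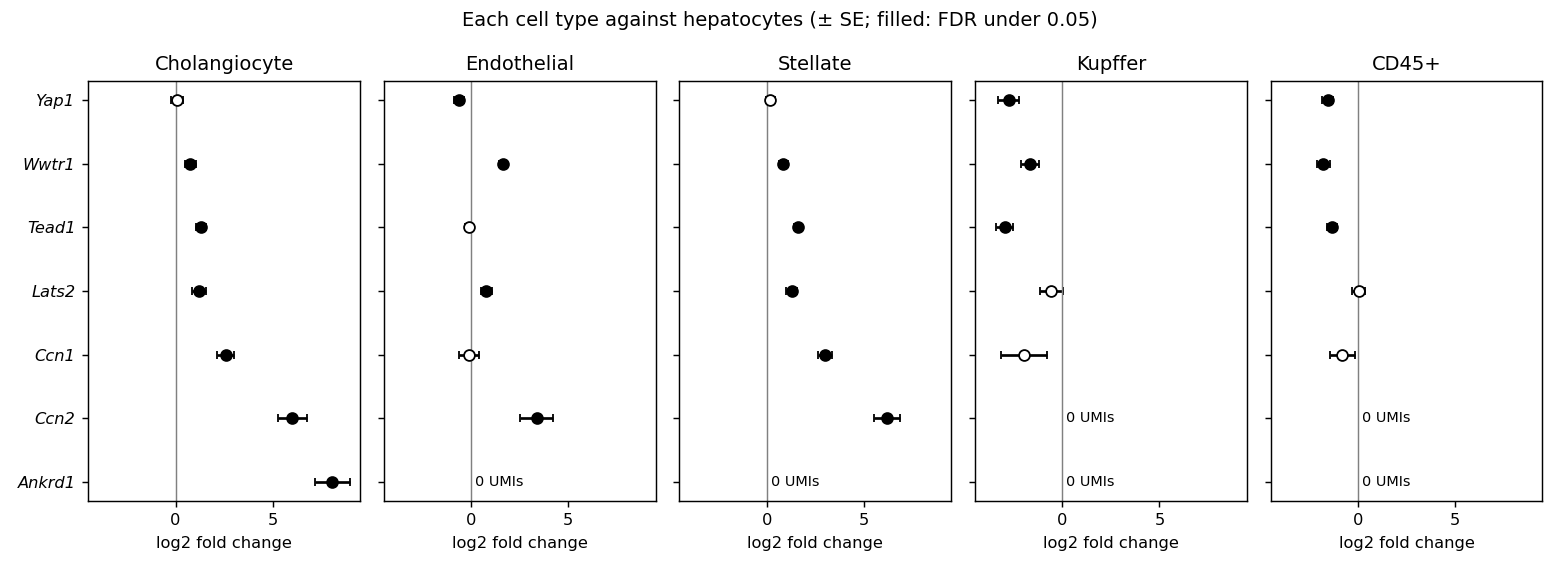
Log2 fold change of 7 genes (rows) in each cell type against hepatocytes, with mouse as a block, as point ± SE from edgeR. Filled points passed an FDR of 0.05, and "0 UMIs" marks a type in which the gene had no UMI. Ccn1 and Ccn2 lie to the right of 0 in both cholangiocytes and stellate cells.

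Yap1, the co-activator of the pathway, was measured at 121, 137 and 127 CPM in hepatocytes of WT mice 1, 2 and 3 and at 120, 138 and 177 CPM in those of HNKO mice 1, 2 and 3. Its mean was 137 ± 21.3 CPM there (SD, n = 6), against 197 ± 45.4 CPM in cholangiocytes (n = 3) and 162 ± 65.0 CPM in stellate cells (n = 6). Neither type passed the test against hepatocytes (cholangiocytes edgeR log2 fold change 0.07, SE 0.30, FDR 0.87; stellate cells 0.18, SE 0.24, FDR 0.54). Endothelial cells were lower, at 104 ± 29.6 CPM (edgeR log2 fold change -0.62, SE 0.24, FDR 0.025), a call that was lost in 2 of 13 alternatives, without HNKO mouse 2 (-0.62, FDR 0.051) and in HNKO mice alone (-0.61, FDR 0.11). Kupffer cells (20.7 ± 21.3 CPM, n = 3) and CD45+ cells (57.7 ± 25.5 CPM, n = 5) had the lowest levels, with log2 fold changes of -2.77 and -1.57 (SE 0.52 and 0.30, edgeR FDR 3.35e-05 and 5.08e-05). The difference between these 2 types did not pass the test (edgeR FDR 0.18).

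Wwtr1, which encodes TAZ, followed another order. Endothelial cells held 282, 297 and 332 CPM in WT mice and 268, 370 and 404 CPM in HNKO mice, above every hepatocyte sum, which ranged from 65.5 to 133 CPM. The log2 fold change was 1.64 (SE 0.20, edgeR FDR 2.02e-08). Cholangiocytes (193 ± 67.6 CPM) and stellate cells (150 ± 52.3 CPM) came next, with no call between them (log2 fold change of stellate cells against cholangiocytes 0.079, SE 0.30, edgeR FDR 0.91), and both were lower than endothelial cells (edgeR FDR 0.018 and 0.0090). Both were also above hepatocytes (edgeR log2 fold change 0.76, SE 0.28, FDR 0.027 and 0.84, SE 0.23, FDR 0.0021), but the cholangiocyte call was lost in 7 of 13 alternatives (log2 fold change 0.25 to 0.90), among them those without WT mouse 1, 2 or 3 or without HNKO mouse 1 or 3. The stellate call was lost in 3 (0.25 to 0.62), among them the one without WT mouse 1. Kupffer and CD45+ cells had 30.4 ± 26.5 and 29.3 ± 18.8 CPM (log2 fold changes -1.65 and -1.80, SE 0.46 and 0.33, edgeR FDR 0.0031 and 2.5e-05).

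Tead1, the DNA-binding partner, was highest in cholangiocytes and stellate cells. Cholangiocytes of HNKO mice 1, 2 and 3 had 845, 780 and 594 CPM. Stellate cells had 865, 393 and 739 CPM in WT mice and 850, 664 and 491 CPM in HNKO mice. All but 1 hepatocyte sum lay between 153 and 232 CPM, and the exception was HNKO mouse 1 with 384 CPM. Stellate WT mouse 2, the lowest of these stellate sums, was only just above that value. The log2 fold change against hepatocytes was 1.32 in cholangiocytes (SE 0.25, edgeR FDR 5.39e-05; 0.77 and not called with no filter on low counts) and 1.61 in stellate cells (SE 0.20, FDR 2.33e-08). Endothelial cells did not pass the test against hepatocytes (243 ± 88.0 CPM, with an edgeR log2 fold change of -0.12, SE 0.21, FDR 0.63). Tead1 in Kupffer cells (30.7 ± 27.5 CPM) was lower than in CD45+ cells (119 ± 31.1 CPM; log2 fold change of CD45+ against Kupffer cells 1.62, SE 0.50, edgeR FDR 0.017), and both were lower than in hepatocytes. Alb was also lower in Kupffer cells (819 CPM) than in CD45+ cells (2236 CPM), and the part of hepatocyte RNA in this Tead1 difference was not tested.

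Lats2, the kinase that phosphorylates YAP and TAZ, was measured at 30.0 to 40.5 CPM in all 6 hepatocyte sums, or 23.6 to 44.5 TMM-scaled CPM. It was higher in cholangiocytes (112 ± 30.9 CPM, with an edgeR log2 fold change of 1.21, SE 0.34, FDR 0.0041) and in stellate cells (85.3 ± 37.9 CPM, 1.28, SE 0.28, FDR 0.00021). Both calls were lost with no filter on low counts (0.70 and 0.69), and the cholangiocyte call also without HNKO mouse 3 (1.00, edgeR FDR 0.081). The endothelial difference (78.0 ± 32.2 CPM, 0.78, SE 0.28, edgeR FDR 0.015) was lost in 4 of 13 alternatives. They included the fit without HNKO mouse 3 (0.61) and that without WT mouse 1, whose endothelial sum was the highest at 139 CPM (0.35). Kupffer and CD45+ cells had 36.9 ± 27.0 and 41.2 ± 26.6 CPM, and neither passed the test against hepatocytes (edgeR FDR 0.43 and 0.96).

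Amotl2, the angiomotin-like scaffold, was sparse, with 237 estimated UMIs in all hepatocyte sums, 37 in endothelial cells, 20 in cholangiocytes and 17.5 in stellate cells. Endothelial sums had 67.2, 33.0 and 9.23 CPM in WT mice and 37.8, 32.5 and 57.7 CPM in HNKO mice. Hepatocytes had 3.92 to 19.7 CPM, so that endothelial WT mouse 3 lay inside the hepatocyte range and the other 5 above it. With no filter on low counts, the endothelial log2 fold change against hepatocytes was 1.77 (SE 0.38, edgeR FDR 2.87e-05), and those of cholangiocytes and stellate cells were 1.21 and 1.19 (SE 0.51 and 0.47, FDR 0.12 and 0.052). Kupffer cells had 0 UMIs of Amotl2 and CD45+ cells had 1.

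Ccn1, a secreted matricellular protein and one of the best known YAP targets, had 71, 4 and 67 UMIs in cholangiocytes of HNKO mice 1, 2 and 3, or 273, 98.5 and 189 CPM. Stellate cells had 198, 282 and 200 CPM in WT mice and 202, 226 and 14.8 CPM in HNKO mice, the last from 2 UMIs. Apart from that 1 sum, every cholangiocyte and stellate sum was above every sum of the other 4 types, whose highest value was 45.3 CPM. The log2 fold change against hepatocytes was 2.59 in cholangiocytes (SE 0.44, edgeR FDR 9.74e-06) and 3.00 in stellate cells (SE 0.38, FDR 2.1e-08). Endothelial cells did not pass the test against hepatocytes (24.8 ± 16.0 CPM, with an edgeR log2 fold change of -0.11, SE 0.50, FDR 0.86).

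The share of nuclei with a Ccn1 UMI was also highest in cholangiocytes and stellate cells. After each nucleus had been thinned to 1500 UMIs, the share was 19.4% of 108 HNKO cholangiocytes and 23.4% of 171 stellate nuclei, against 3.91% of 4401 hepatocytes. It was 2.82% of 177 CD45+ nuclei, given here as the level that free RNA can leave. Without thinning, the shares were 46.3%, 33.9%, 10.4% and 6.21%, at median depths of 4525.5, 3378, 4484 and 3021 UMIs.

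Ccn2, a matricellular protein related to Ccn1, was rarer. Stellate cells had 0, 4 and 4 UMIs in WT mice and 27, 13 and 0 UMIs in HNKO mice, and cholangiocytes had 21, 1 and 17 UMIs. All 6 hepatocyte sums together had 19 UMIs, from 0 to 1.12 CPM each. Pooled over mice, stellate cells were 110-fold (95% exact counting interval 63.4 to 198) and cholangiocytes 94.1-fold (53.1 to 172) above hepatocytes, intervals that cover counting error only. The fitted log2 fold changes were 6.21 (SE 0.67, edgeR FDR 5.33e-09) and 6.02 (SE 0.77, FDR 3.34e-07). Endothelial cells held 11 UMIs and were between hepatocytes and stellate cells (against hepatocytes 3.37, SE 0.86, edgeR FDR 0.0013; stellate against endothelial cells 2.84, SE 0.73, FDR 0.0030). Kupffer and CD45+ cells had 0 UMIs, so that stellate cells were at least 5.41-fold and 14.6-fold higher against a floor of 3 UMIs over each group.

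Ankrd1, a nuclear ankyrin repeat protein, was the most restricted of the 8 genes. Of its 79 UMIs, 71 were in cholangiocytes and 8 in hepatocytes. Cholangiocytes of HNKO mice 1, 2 and 3 had 19, 17 and 34 UMIs, or 73.0, 419 and 95.7 CPM, and the only cholangiocyte nucleus of WT mouse 1 had 1. The other 4 types had 0. Pooled over mice, cholangiocytes were 401-fold above hepatocytes (95% exact counting interval 193 to 965), and the fitted log2 fold change was 8.08 (SE 0.91, edgeR FDR 1.13e-06). They were at least 33.7-fold above endothelial cells, 24.6-fold above stellate cells, 8.31-fold above Kupffer cells and 22.4-fold above CD45+ cells against a floor of 3 UMIs over each group. Between stellate cells and cholangiocytes Ankrd1 passed the test and the other 6 genes tested did not (1 of 7, with 27.9% of all genes differing). Ankrd1 entered these tests only through cholangiocytes, where it was high, and had 0 UMIs in stellate cells. Its calls were thus partly set in advance. DESeq2 did not call Ankrd1 higher in cholangiocytes than in hepatocytes (FDR 0.18).

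The deposited annotation divided cholangiocytes into a pair of clusters, and the targets did not share a direction between them. Ankrd1 was 58.8 and 51.8 CPM in Cholangiocyte 1 of HNKO mice 1 and 3 and 153 and 289 CPM in Cholangiocyte 2 of the same mice. Amotl2 went the same way, at 13.6 and 20.7 CPM in Cholangiocyte 1 and 76.6 and 76.0 CPM in Cholangiocyte 2. Ccn1 went the other way, at 312 and 194 CPM in Cholangiocyte 1 and 51.1 and 167 CPM in Cholangiocyte 2. Ccn2 had no common direction, at 40.7 and 48.4 CPM in Cholangiocyte 1 and 307 and 45.6 CPM in Cholangiocyte 2. Cholangiocyte 2 had 10 and 13 nuclei in these mice, and the clusters were made from the same counts, so that no test is given. In HNKO mouse 2 the order of Ankrd1 was not the same, since the only nucleus outside its 9 Cholangiocyte 2 nuclei held 13 of its 17 UMIs.

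Genotype was compared next within each type with enough nuclei in both groups. In hepatocytes 0 of 11810 genes (0%) and 0 of the 6 tested members passed the FDR threshold, whereas 5.91% of all genes had an unadjusted p under 0.05 and DESeq2 called 21 genes, none of them a member. Ccn2 and Ankrd1 had 19 and 8 UMIs in hepatocytes and were not tested. The values in this comparison were scaled by TMM, since the hepatocyte sum of HNKO mouse 3 had a TMM factor of 1.28 against 0.917 to 1.01 in the others.

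**Figure D3:**
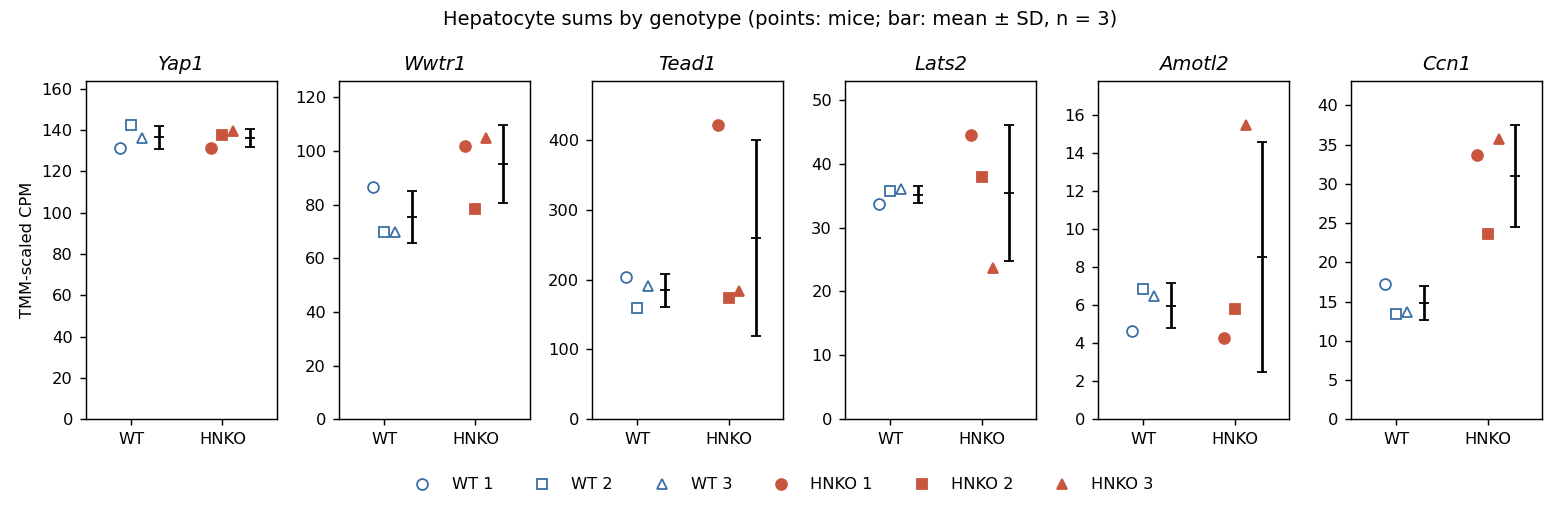
TMM-scaled CPM (vertical axis, from 0) of 6 genes in hepatocyte sums, with 1 point per mouse and mean ± SD for 3 WT and 3 HNKO mice. The Ccn1 points of HNKO mice lie above those of WT mice, whereas the high means of Tead1 and Amotl2 each come with 1 high HNKO mouse.

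Ccn1 was 17.3, 13.4 and 13.7 TMM-scaled CPM in hepatocytes of WT mice 1, 2 and 3 and 33.7, 23.6 and 35.7 in those of HNKO mice 1, 2 and 3. All 3 HNKO mice were above all 3 WT mice, and the means were 14.8 ± 2.15 and 31.0 ± 6.47 (SD, n = 3 each). The difference did not pass the correction over all genes (log2 fold change 1.07, SE 0.23, edgeR unadjusted p = 0.0015 and FDR 0.82). Over all genes, 6.42% were higher in HNKO mice without overlap on this scale, and 10.2% without TMM scaling. The FDR was 0.095 to 0.98 over the alternatives, with log2 fold changes of 0.97 to 1.23. The share of hepatocyte nuclei with a Ccn1 UMI at 1500 UMIs was 1.96%, 2.11% and 2.44% in WT mice and 4.93%, 4.77% and 6.04% in HNKO mice. In CD45+ nuclei of HNKO mice 1, 2 and 3 it was 2.94%, 7.69% and 2.22%, from 68, 26 and 45 nuclei. These shares were below the hepatocyte share of the same mouse in HNKO mice 1 and 3 and above it in HNKO mouse 2. With so few nuclei, 1 or 2 nuclei set these values. In WT mice 0 of 38 CD45+ nuclei had one, which allows a share of up to 7.89%. At 1000 UMIs the mean share in HNKO mice was 3.51% in hepatocytes and 1.23% in CD45+ nuclei. Without thinning, the shares were 6.57% in WT and 13.4% in HNKO hepatocytes, at median depths of 3742.5 and 5257 UMIs.

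Cholangiocytes also express Ccn1 and nearly all came from HNKO mice (108 of 110 nuclei). Some of their markers were therefore counted in hepatocyte nuclei, a step chosen after seeing the data. A UMI of Krt19, Krt7, Epcam or Cftr was found in 0.356% to 0.913% of hepatocyte nuclei of WT mice and in 0.369% to 0.611% of those of HNKO mice. Without these nuclei the Ccn1 log2 fold change was 1.06. The summed level of all 8 cholangiocyte markers in hepatocytes did differ between some mice. It reached 645 CPM for HNKO mouse 1 and 560 CPM for HNKO mouse 3. HNKO mouse 2, at 334 CPM, lay within the WT range of 333 to 384 CPM. In HNKO mice hepatocyte Ccn1 was 11.3%, 24.1% and 24.0% of the cholangiocyte level of the same mouse. Hepatocyte Ankrd1 was 0.413%, 0% and 0.760% of its cholangiocyte level, from 2, 0 and 4 hepatocyte UMIs. The part of cholangiocyte RNA in hepatocyte Ccn1 was not tested.

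The co-activators and Tead1 did not pass the genotype test in hepatocytes. Yap1 was 131, 142 and 136 TMM-scaled CPM in WT mice and 131, 138 and 139 in their HNKO counterparts (edgeR log2 fold change -0.0045, SE 0.15, FDR 1.0), with overlapping groups. Wwtr1 was 86.4, 69.7 and 69.9 in WT mice and 102, 78.4 and 105 in HNKO mice (edgeR log2 fold change 0.34, SE 0.19, FDR 0.82), and HNKO mouse 2 lay below WT mouse 1. Tead1 was 204, 159 and 191 in WT mice and 421, 174 and 183 in HNKO mice (edgeR log2 fold change 0.49, SE 0.35, FDR 0.83). HNKO mouse 1 alone was high in Tead1, and without it the log2 fold change was -0.048.

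Among the restraining genes, Lats2 was 33.6, 35.8 and 36.0 TMM-scaled CPM in WT mice and 44.5, 37.9 and 23.6 in their HNKO counterparts, which lay on both sides of the WT values (edgeR log2 fold change 0.0065, SE 0.24, FDR 1.0). Amotl2 was 4.63, 6.84 and 6.49 in WT mice and 4.30, 5.82 and 15.5 in HNKO mice (edgeR log2 fold change 0.51, SE 0.49, FDR 0.85). HNKO mouse 3 alone was high, with 108 UMIs, and without it the log2 fold change of Amotl2 was -0.24.

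Of the wider pathway, 59 genes were listed and 39 were tested in hepatocytes, with 0 past the FDR threshold. An unadjusted p under 0.05 was found for 4 of them (10.3%, against 5.91% of all genes), namely Ccn1, Fat1, Amot and F3. Fat1 is a giant cadherin that acts upstream of the kinases, and was 61.6 ± 2.56 TMM-scaled CPM in WT mice and 103 ± 37.3 in the HNKO mice (edgeR log2 fold change 0.74, SE 0.26, FDR 0.82). Amot is the founding angiomotin scaffold and was 10.7 ± 5.45 and 28.4 ± 17.3 (1.43, SE 0.56, edgeR FDR 0.82). F3 encodes tissue factor and was 2.31 ± 1.25 and 4.88 ± 1.04 (1.04, SE 0.43, edgeR FDR 0.82). Of the 15 tested genes of the YAP-TEAD target list 12 had a positive fold change, with a median log2 value of 0.28 against 0.019 over all genes tested. Of the 14 core kinases and adaptors 9 were positive, with a median of 0.029. Of the 7 tested junction and scaffold regulators 6 were positive, with a median of 0.51. Of the 5 tested co-activators and DNA-binding partners 3 were positive, with a median of 0.16. A positive median was thus not particular to the targets. The target list had no common direction across types. In stellate cells 1 of 8 tested targets was positive, with a median of -0.49 against 0.018 over all genes. In endothelial cells 2 of 4 were positive (-0.11 against -0.0026), and in CD45+ cells 3 of 5 (0.21 against 0.0061).

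In endothelial, stellate and CD45+ cells, 0 of 2743, 0 of 2266 and 0 of 2703 genes (0% each) passed the threshold between genotypes, and unadjusted p under 0.05 was found for 3.79%, 7.06% and 8.21%. DESeq2 called 1, 1 and 4 genes there and no member. Of the 8 members 3, 4 and 1 were tested there and none was called. Yap1 in endothelial cells was 112, 66.0 and 73.9 CPM in WT mice and 145, 103 and 122 CPM in HNKO mice (edgeR log2 fold change 0.56, SE 0.37, FDR 1.0), with HNKO mouse 2 below WT mouse 1. Tead1 and Wwtr1 in endothelial cells (0.63, SE 0.34 and 0.16, SE 0.26), Tead1, Yap1 and Wwtr1 in stellate cells (-0.031, -0.12 and 0.45, SE 0.36, 0.47 and 0.40) and Tead1 in CD45+ cells (0.20, SE 0.55) had log2 fold changes under 2 SE. Ccn1 in stellate cells had a log2 fold change of -0.59 (SE 0.60, edgeR FDR 0.89) that came with the 2 UMIs of HNKO mouse 3, and without that mouse it was -0.088. The same stellate sum had 0 UMIs of Ccn2, while its Tead1, Yap1 and Wwtr1 (491, 192 and 162 CPM) lay within the range of the other stellate sums.

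Whether the genotype effect differed between cell types was tested with an interaction term. None of the 7 members tested passed it, either for hepatocytes against endothelial cells, where 0.113% of all 11517 genes did, or for hepatocytes against stellate cells, where 0.54% of 11473 did. For Ccn1 the effect was 1.61 higher on the log2 scale in hepatocytes than in stellate cells (SE 0.54, edgeR FDR 0.19). Without HNKO mouse 2 the difference was 2.38 and was called (edgeR FDR 0.015), and without HNKO mouse 3 it was 0.81 (edgeR FDR 1.0). For Yap1 the effect in hepatocytes minus that in endothelial cells was -0.67 on the log2 scale (SE 0.43, edgeR FDR 0.93).

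Hepatocytes are zoned along the lobule from the portal vein to the central vein, and the authors named several clusters by zone. These clusters were made from the same counts, so that the values that follow are a description with no test. Central clusters held 39 to 100 nuclei per mouse, and periportal clusters held 216 to 378 nuclei in WT mice and HNKO mouse 2 and under 20 in the other 2 mice. Cyp2e1, a central marker, was 8.33-fold to 22.0-fold higher in central than in periportal clusters of the same mouse.

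**Figure D4:**
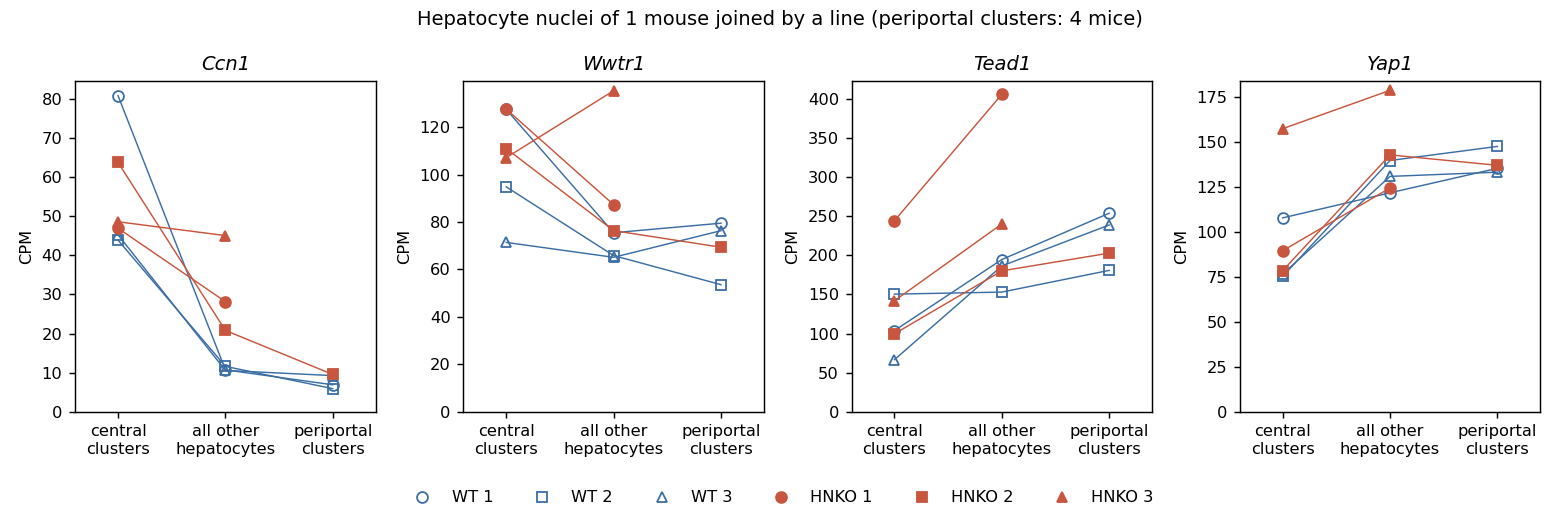
CPM (vertical axis, from 0) of 4 genes in the central clusters, in all hepatocytes outside them and in the periportal clusters, with a line joining the values of 1 mouse. Ccn1 falls and Tead1 and Yap1 rise from central to periportal clusters in all 4 mice that have both.

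Ccn1 was 80.8, 43.9 and 45.2 CPM in central clusters of WT mice 1, 2 and 3 and 63.7 CPM in those of HNKO mouse 2. In periportal clusters of the same mice it was 6.90, 5.92, 9.25 and 9.54 CPM, so that the central value was 4.89-fold to 11.7-fold higher in 4 of 4 mice. In HNKO mice 1 and 3, where few nuclei were named periportal, central clusters had 46.9 and 48.6 CPM and all other hepatocytes 28.2 and 45.0 CPM. On this scale, which is not corrected by TMM, Ccn1 outside the central clusters was 10.7, 11.6 and 10.6 CPM in WT mice and 28.2, 20.8 and 45.0 CPM in HNKO mice. Inside them it was 43.9 to 80.8 CPM in WT mice and 46.9 to 63.7 CPM in HNKO mice. The nuclei outside the central clusters came from different clusters in the groups, since periportal clusters held 216 to 267 nuclei in WT mice and 4, 378 and 1 in HNKO mice 1, 2 and 3, so that these values do not compare the same kind of nuclei. Its highest level in any hepatocyte cluster with at least 20 nuclei was 105 CPM, in Hepatocytes 2 of HNKO mouse 1.

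Tead1 and Yap1 ran against Ccn1 across the same clusters. Tead1 was 104, 150, 66.7 and 99.7 CPM in central and 254, 181, 239 and 203 CPM in periportal clusters of WT mice 1, 2 and 3 and HNKO mouse 2. Yap1 was 108, 75.2, 76.5 and 78.4 CPM in central and 135, 147, 133 and 137 CPM in periportal clusters. Against all other hepatocytes of the same mouse, both were lower in central clusters in 6 of 6 mice, although WT mouse 2 had a Tead1 ratio of 0.983. Wwtr1 was higher in central than in periportal clusters in 3 of 4 mice, with ratios of 0.935 to 1.77. Lats2 had no common direction (higher in 2 of 4 mice, ratios 0.778 to 1.41). Amotl2 was higher in central clusters in 4 of 4 mice, from 1 to 4 UMIs in each.

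The genes whose levels ran most closely with the co-activators and Tead1 over the 29 sums were sought among the 9070 genes with a mean of at least 10 CPM, as Pearson's r of log2(CPM + 1). For Tead1 these were Farp1 (r = 0.97), Tshz2 (0.95) and Nedd4 (0.92). For Yap1 they were Myo18a (0.93), Farp1 (0.91) and Sec23a (0.91), and for Wwtr1 Cdan1 (0.90), Robo1 (0.89) and Xkr6 (0.87). Among the members, Yap1 and Tead1 had r = 0.90, Wwtr1 and Tead1 0.71 and Ccn1 and Ccn2 0.69, whereas Ankrd1 and Yap1 had 0.28. The sums share mice and differ in depth, so that these values are descriptive.

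Other genes of the pathway set the cell types apart further. In endothelial cells the tested members of the wider lists with the largest differences from hepatocytes were Amotl1 (174 ± 41.0 against 0.685 ± 0.428 CPM, with an edgeR log2 fold change of 7.45, SE 0.39, FDR 4.73e-17), the protocadherin Fat4 (mean 155 CPM, 7.23) and the phosphatase Ptpn14 (102 ± 42.7 CPM, 6.89), higher in 6 of 6 mice. In stellate cells they were the RNA-binding protein Rbms3 (7362 ± 1449 against 11.8 ± 2.95 CPM, log2 fold change 9.28), the exchange factor Arhgef17 (147 ± 38.1 CPM, 9.01) and Ccdc80 (177 ± 49.8 CPM, 8.45). In cholangiocytes they were Ptpn14 (261 ± 156 CPM, 8.05), Myof (257 ± 72.5 CPM, 7.44) and Arhgef17, which had 25 UMIs against 0 in hepatocytes of the same mice. In Kupffer cells the receptor tyrosine kinase Axl was higher (351 ± 57.1 against 1.11 ± 0.686 CPM, 7.90, edgeR FDR 8.38e-16), and Nt5e and Dlg5 had 0 UMIs there against 798 and 382 in hepatocytes. In CD45+ cells Myof (107 ± 108 CPM, 6.35), Axl (73.1 ± 49.8 CPM, 5.95) and Map4k4 (179 ± 60.3 CPM, 3.24) were higher, Axl in 4 of 5 mice and the others in 5 of 5.

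By list, 15 of 19 tested YAP-TEAD targets were higher and 2 lower in stellate cells than in hepatocytes, with a median log2 fold change of 3.00 against 0.10 over all genes, of which 31.3% were higher and 27.9% lower. In cholangiocytes 11 of 19 were higher and 0 lower (median 1.71 against 0.071), where 20.3% of all genes were higher and 20.2% lower. In endothelial cells 10 were higher and 4 lower (median 1.57 against -0.069), where 27.8% of all genes were higher and 31.7% lower. In Kupffer cells 5 were higher and 1 lower (median 0.16 against -0.15), where 24% of all genes were higher and 27.6% lower. In CD45+ cells 4 were higher and 0 lower (median 0.50 against -0.15), where 22.6% of all genes were higher and 29.6% lower. The counts higher in Kupffer and CD45+ cells were thus near the share of all genes. Of the 29 listed targets 19 passed the filter on low counts. Those nearly absent from hepatocytes, such as Arhgef17 and Ccdc80 (5 and 13 UMIs there), passed it through types in which they were high. The target counts and medians lean towards higher values for that reason. All 4 tested co-activators and partners, which are Yap1, Wwtr1, Tead1 and Vgll4, were lower in Kupffer and in CD45+ cells than in hepatocytes.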

How the data were processed

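Nuclei from 3 WT and 3 HNKO livers had been sequenced as 2 pools of RNA with 2 pools of hashtags, with 4250 nuclei sorted from each mouse. The authors counted UMIs with alevin on GRCm38 (GENCODE M25, introns included) and deposited estimated counts per gene and nucleus, together with the hashtag and cluster name of each nucleus. The submitters' processing notes also name Cell Ranger 5.0.1. The deposited SCT values and hashtag counts were not used here. No doublet caller was run here.

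The 21 cluster names were grouped into 6 types and the estimated counts summed per mouse and type, with at least 10 nuclei per sum (29 sums), and rounded to whole numbers. edgeR 4.0.16 in R 4.3.3 was used (filterByExpr, TMM, quasi-likelihood F test, two-sided, Benjamini-Hochberg FDR threshold 0.05 over all genes tested). Genotype was fitted alone. Cell types and interactions were fitted with mouse as a block, since sums of 1 mouse share the animal. Same-mouse deviations of hepatocyte and endothelial sums correlated at 0.097 to 0.48 (2830 genes) and of hepatocyte and stellate sums at -0.030 to 0.37 (1960 genes). The SE is the log2 fold change divided by the square root of F. Counts were also simulated with a log2 change of 2. For genotype, the fit recovered 86.5% of changed genes in hepatocytes, 86.5% in endothelial, 74.5% in stellate and 52.5% in CD45+ cells. It recovered 75.5% for endothelial cells against hepatocytes, the only cell type contrast simulated, with all types otherwise alike. For the interactions with endothelial and stellate cells it recovered 28% and 11.5%.

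Positions come from GENCODE M21 on GRCm38. Named genes are the 8 members, Nampt, listed pathway genes past the FDR in a genotype or interaction test, the 3 with the largest fold change past it per contrast with hepatocytes, and the 3 most similar to Yap1, Wwtr1 and Tead1. F3, Fat1 and Amot were named after their values were seen. Members and lists were chosen with earlier results of these data known. Mice are separate animals of 1 genotype. Alternatives were DESeq2 1.42.0, RLE factors, no filter on low counts, each mouse left out, the top 5% of nuclei by UMIs left out, no mouse block and at least 20 nuclei per sum. Python 3.11.15, numpy 2.4.6, pandas 2.3.3, scipy 1.17.1 and matplotlib 3.10.9 were used.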

Additional observations from a re-analysis of the deposited data

Results flagged for a closer look

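In 28 groups of 5 or 6 mice (the 8 genes in each type with at least 4 sums, leaving out 4 groups with 0 UMIs in every mouse), 6 had 1 mouse set far from the rest by the gap to its neighbour. Chance gives about 1 in 20 for values that spread normally, which does not hold for sparse counts where 1 or 2 UMIs set the gap. These groups hold both genotypes. Tead1 in hepatocytes was 384 CPM in HNKO mouse 1 against 232 in the next mouse, and the gap remained after TMM scaling (421 against 204). Amotl2 in hepatocytes was 19.7 CPM in HNKO mouse 3 against 6.58 in the next, and 15.5 against 6.84 after TMM scaling. Yap1 in hepatocytes was 177 CPM in HNKO mouse 3 against 138 in the next, and after TMM scaling that mouse (139) was no longer the highest. Ccn1 in stellate cells was 14.8 CPM in HNKO mouse 3, from 2 UMIs, against 198 in the next lowest. Lats2 in endothelial cells was 139 CPM in WT mouse 1 against 86.0 in the next, from 12.4 UMIs. Amotl2 in CD45+ cells was 6.12 CPM in HNKO mouse 3, from 1 UMI, and 0 in the other 4 mice. Of these 6, 4 concern HNKO mouse 3, whose hepatocyte sum also had the highest TMM factor and the lowest hepatocyte marker level. The part of that library in these values was not tested.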

How the results depend on the processing

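The 21 calls of the 8 genes against hepatocytes included 13 that held in every alternative run. With no filter on low counts the genes called against hepatocytes rose to 3382 in cholangiocytes, 6067 in endothelial, 5847 in stellate, 4170 in Kupffer and 5266 in CD45+ cells, while the members called fell to 3 in cholangiocytes and 3 in stellate cells. Yap1 then reversed to -0.46 in cholangiocytes and -0.40 in stellate cells, as did Lats2 in CD45+ cells (-0.46), and the cause was not tested. The median over all 27779 genes then tested was -0.63 to -1.01 in the 5 contrasts, against -0.15 to 0.10 over 5335 genes. In HNKO mice alone, chosen after seeing the data, Yap1 was -0.083 in cholangiocytes and -0.15 in stellate cells, and 2 members were called in endothelial cells. Without the top 5% of nuclei by UMIs Lats2 in CD45+ cells was -0.055.

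Between genotypes DESeq2 called 21 genes in hepatocytes, 1 in endothelial, 1 in stellate and 4 in CD45+ cells, and the fit with no filter 35, 16, 29 and 23, with no member among them. The near-zero hepatocyte changes turned sign, with Yap1 at 0.018 with no filter and Lats2 at -0.0025 with DESeq2, -0.0025 with RLE factors and -0.0032 without nuclei holding a cholangiocyte marker (chosen after seeing the data), and stellate Tead1 at 0.032 with no filter. For the interaction of hepatocytes with endothelial cells DESeq2 called 2 genes and the fit without the top 5% of nuclei 4, and with stellate cells DESeq2 called 0, the fit with no filter 36 and that without the top nuclei 9. Without the block on mouse, both interactions called 0 genes. Dropping the block moved no count of members called and no count of genes called in the cell type contrasts by over 1.5 times.

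Leaving out 1 mouse at a time gave 0 to 32 genes called between genotypes in hepatocytes, 0 to 47 in stellate and 0 to 10 in CD45+ cells, 5 to 32 for the endothelial and 0 to 175 for the stellate interaction. Members called ranged from 2 to 6 in cholangiocytes, 2 to 4 in endothelial cells and 0 to 1 for the stellate interaction. Log2 changes that crossed 0 were, between genotypes in hepatocytes, Yap1 (-0.036 to 0.023), Tead1 (-0.048 to 0.71), Amotl2 (-0.24 to 0.83) and Lats2 (-0.19 to 0.24), and in stellate cells Yap1 (-0.48 to 0.27) and Tead1 (-0.34 to 0.19). Against hepatocytes they were Yap1 in cholangiocytes (-0.19 to 0.094) and stellate cells (-0.23 to 0.39), Ccn1 in endothelial cells (-0.41 to 0.0064) and Lats2 in CD45+ cells (-0.57 to 0.16).

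Thinned to 1000 UMIs, the mean share of nuclei with a Ccn1 UMI was 3.51% in HNKO hepatocytes and 1.23% in HNKO CD45+ cells. With at least 10 nuclei per cluster and mouse, the lowest Lats2 level was 4.95 CPM. Sums from each pool alone were not run, since the pools could not be told apart. Small sums limit Ccn2, Ankrd1 and Amotl2, which held under 50 UMIs in most types, and cholangiocyte values rest on 10 nuclei in HNKO mouse 2.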
